A study of Mus musculus with 139 samples.

Results

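Whole lungs given the lowest tested dose of multi-walled carbon nanotubes (MWCNT), 1 µg, were compared with lungs given the vehicle. The labels that state treatment, dose and time put 23 arrays, 16.5% of all arrays of the series, in the 1 µg groups. Mouse m101 (1 month) has 2 arrays, which were averaged, so these arrays stand for 22 mice, with 8 mice at 1 month, 8 at 6 months and 6 at 12 months. The vehicle, dispersion medium (DM), was given to 24 other mice, 8 at each time. All were male mice of the strain that the labels write as C57BL/J6, were 7 weeks old on arrival and carried no genetic alteration that the labels name. Each mouse of either kind had breathed in a single droplet of DM, a saline with glucose, mouse serum albumin and a lung phospholipid, placed in the pharynx under isoflurane, with or without the fibres. Lungs were taken 1, 6 or 12 months later. A dose given in a droplet differs from inhaled dust, and the labels do not state how much reached each lung. The study asked how lung expression changed as the MWCNT dose increased, and 1 µg is the step next to the vehicle.

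MWCNT are stiff carbon fibres that persist in the lung. Alveolar macrophages take up inhaled fibres, and macrophages that cannot digest them can take on a repair state marked by genes such as Retnla and Chil4. Airway epithelium answers type 2 cytokines by making mucous (goblet) cells, which express the mucins Muc5b and Muc5ac and the secreted protein Clca1. Immediate early genes such as Fos and Egr1 are switched on within minutes of a stimulus, and handling of tissue is a known stimulus.

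Values are log2 signals, and a difference is the mean of 1 µg mice minus the mean of DM mice in log2 units, with its standard error (SE) from limma. The SE and the limma p rest on the spread within all 18 groups of the series, high doses included. For genes that vary most at high doses, the SE can therefore exceed what the spread of the compared mice alone would give. A gene counts as changed where the Benjamini-Hochberg adjusted p over 22180 genes is under 0.05. The lung genes Sftpc, Sftpb, Scgb1a1, Ager and Cdh5 lay in the top percent of all genes. In bulk tissue, fewer cells of a type and less RNA per cell cannot be told apart.

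Several lungs stood apart before any comparison. Krt4, a keratin of squamous epithelium, was above 8 in 1 µg mice m286 (1 month, 11.89), m309 (6 months, 11.68) and m347 (6 months, 11.44), and in DM mouse m350 (1 month, 12.11). In the other mice of these 2 treatments it was lower than 8. Among mice of these 2 treatments, 1 µg mice m7 and m154 (both 6 months) and DM mouse m314 (12 months) had the lowest median correlations with the other mice of the series, 0.961 to 0.962. The 1 µg mouse m247 (6 months) had levels of several inflammation genes, though not of all, like those of mice given far higher doses, described below. An unexplained word, replacement, stands in the title of 1 of 9 arrays of 1 µg against 4 of 8 of DM at 1 month, of 0 of 8 against 1 of 8 at 6 months, and of 2 of 6 against 3 of 8 at 12 months.

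No gene was called changed by 1 µg at 1, 6 or 12 months or over the 3 times pooled (0.0% of genes in each, limma). The smallest adjusted p was 0.0577, at 6 months. At an unadjusted p under 0.05 there were 437 genes at 1 month (1.97%), 1248 at 6 months (5.63%), 595 at 12 months (2.68%) and 701 pooled (3.16%). Single mice moved these numbers, to 774 at 6 months without 1 µg mouse m7, and at 12 months to 357 without DM mouse m314 and 899 without DM mouse m2. Without mouse m247 the 6-month number was 1590 (7.17%), again with 0 genes called. No gene was called for a difference between the times in the effect of 1 µg (0.0%), and 651 genes had an unadjusted p under 0.05 (2.94%).

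The precision bounds what could be missed. The median SE of a difference was 0.15 at 1 month, 0.15 at 6 months and 0.16 at 12 months. The 95% interval lay within a 2-fold change either way for 98.7% of genes at 1 month, 98% at 6 months and 98.1% at 12 months. These shares do not bound the genes that vary most. At 1 month the intervals of Clca1, Chil4, Retnla and several other mucous cell genes described below reached past 2-fold. Differences past 2-fold numbered 4 at 1 month, 29 at 6 months and 8 at 12 months. All 29 at 6 months lay above DM. They included genes of squamous epithelium (Krt4, Krt13, Krtdap and Lor) and skeletal muscle (Acta1, Myh1, Myh4 and Neb), tissues taken up below. Without mouse m247 the 6-month number was 49. The 4 at 1 month were Clca1 and Chil4 above DM, and Fcna, a ficolin of macrophages, and Cyp26b1, which degrades retinoic acid, below it.

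At 1 month several genes of mucous cells lay above DM, none of them called. Clca1 had levels from 4.79 to 10.05 (median 6.82) in the 8 1 µg mice, against 3.55 to 8.10 (median 4.59) in the 8 DM mice. The groups overlapped through DM mouse m391 at 8.10. All 8 1 µg mice lay above the DM median, 7 above the second highest DM mouse, and 3 above every DM mouse. The difference was 2.24 ± 0.63 (SE, 95% interval 0.98 to 3.49), the largest of any gene at 1 month, with an adjusted p of 1 in limma. The standard deviation (SD) of Clca1 was 1.82 in 1 µg mice and 1.42 in DM mice. An exact permutation test of this gene, two-sided, gave p = 0.0174, and 0.297 after adjustment over 45 tests of 15 panel genes at 3 times.

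**Figure D1:**
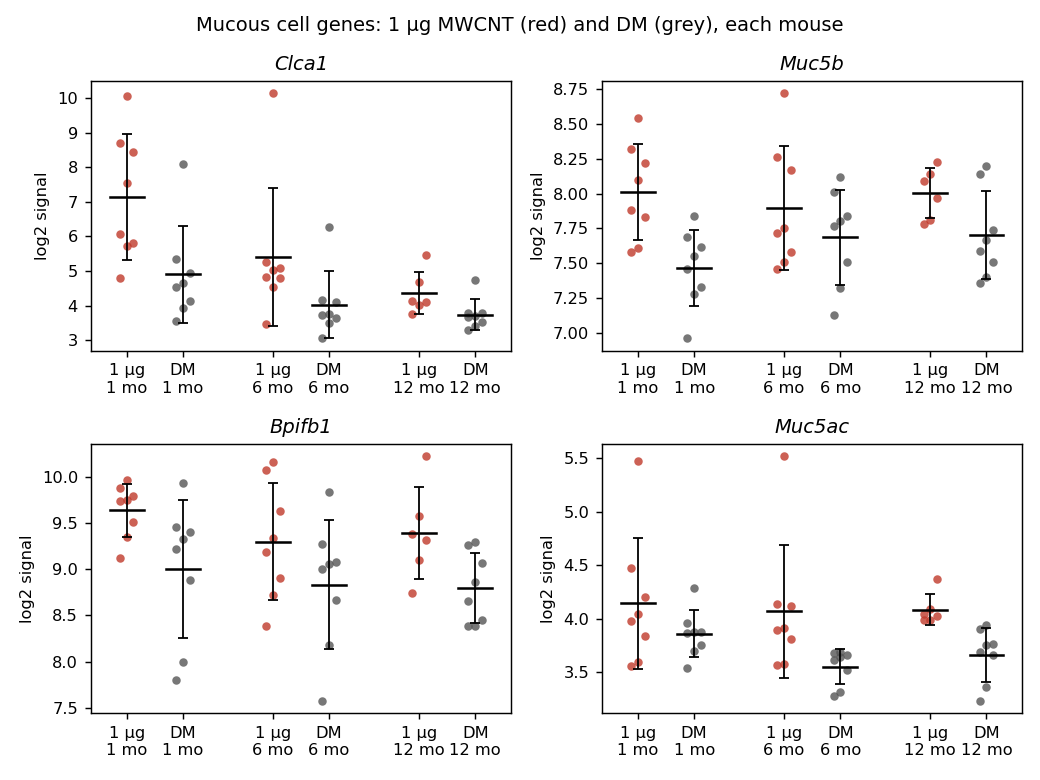
Log2 signal (vertical axis) of Clca1, Muc5b, Bpifb1 and Muc5ac in each mouse, 1 µg MWCNT in red beside DM in grey at 1, 6 and 12 months, with a bar at the mean and whiskers of 1 SD. At 1 month the 1 µg mice reach 10.05 for Clca1 and DM mice 8.10, and the 6-month 1 µg mouse at 10.14 is mouse m247.

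Muc5b, the gel-forming mucin of resting airways, had 7.58 to 8.54 (median 7.99) in 1 µg mice at 1 month, against 6.96 to 7.84 (median 7.51) in DM mice. Of the 8 1 µg mice, 5 were above every DM mouse. The difference was 0.54 ± 0.17, with an exact permutation p of 0.00373, the smallest of the 45, and 0.168 after adjustment. Agr2, an endoplasmic reticulum protein needed for mucin folding, had 3.27 to 5.68 (median 4.73) in 1 µg mice, against 3.43 to 4.54 (median 3.95) in DM mice. The groups overlapped, with 5 1 µg mice above every DM mouse and 1 below every DM mouse, and the difference was 0.71 ± 0.28.

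Bpifb1, a secreted airway defence protein, had 9.12 to 9.97 (median 9.74) in 1 µg mice, against 7.80 to 9.94 (median 9.27) in DM mice, a difference of 0.64 ± 0.26. Here the groups differed at the low end, and only 1 of the 8 1 µg mice was above every DM mouse. Fcgbp, a mucin-binding protein, had 4.51 to 5.96 (median 5.01) in 1 µg mice, against 4.03 to 4.90 (median 4.47) in DM mice, a difference of 0.60 ± 0.29. The second airway mucin Muc5ac had 3.56 to 5.47 (median 4.01) in 1 µg mice, against 3.54 to 4.29 (median 3.87) in DM mice, a difference of 0.29 ± 0.27, and 0.10 without mouse m340. For Spdef and Foxa3, transcription factors of goblet cells, the means of the groups differed by less than their SE.

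Of the 14 mucous cell genes measured, 5 were higher at an unadjusted p under 0.05 at 1 month (Clca1, Muc5b, Agr2, Bpifb1 and Fcgbp), where 0.839% of all genes were, and 0 were called (0.0%). The median difference of the 14 was 0.28, beside 0.01 over all genes, with 9 above 0 and 5 below, where 55.1% of all genes were above 0. Without DM mouse m391 the number at that threshold was 3, and without 1 µg mouse m340 the median was 0.17.

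The title word replacement moved with this result. Among arrays without it the Clca1 difference was 2.82, that of Muc5b 0.48, of Agr2 0.58, of Fcgbp 0.64 and of Bpifb1 0.20, beside 0.64 for Bpifb1 with all arrays. There 2 of the 14 genes, and 234 of all 22180, were higher at an unadjusted p under 0.05, and the median of the 14 was 0.25. Among arrays with it, 1 of 1 µg against 4 of DM, Clca1 differed by 0.35, Bpifb1 by 0.29 and Muc5b by -0.39, and the median of the 14 genes was -0.13. The 2 arrays of mouse m101 were themselves unlike, with Clca1 at 5.58 on the array with the word and 9.53 on the other, and Muc5b at 6.94 and 8.22. With that word fitted as a covariate, the Clca1 difference was 2.15 and the median 0.27. Its part in the result was not tested further.

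At later times the Clca1 difference was smaller, while that of Muc5ac was not, and neither gene was called for a difference between the times. At 6 months Clca1 lay from 3.46 to 5.25 in 7 1 µg mice and at 10.14 in mouse m247, against 3.05 to 6.28 (median 3.75) in DM mice. Its difference was 1.37 ± 0.63, and 0.69 ± 0.62 without mouse m247. Muc5ac differed by 0.52 at 6 months, and by 0.31 without mouse m247. Of the 14 genes 2 were higher at an unadjusted p under 0.05 (1.63% of all genes), Clca1 and the anion exchanger Slc26a4, and without mouse m247 the number was 1 (2.02%). At 12 months Clca1 had 3.77 to 5.47 (median 4.12) in 1 µg mice, against 3.30 to 4.75 (median 3.69) in DM mice. The difference was 0.63 ± 0.68, with an SD of 0.62 in 1 µg mice and 0.44 in DM mice. Its exact permutation p was 0.0526, and 0.32 after adjustment. All 6 1 µg mice were above the DM median, and only 1 was above every DM mouse.

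At 12 months 12 of the 14 mucous cell genes lay above 0 (54.9% of all genes), with a median of 0.22 beside 0.02 over all genes, and 1 (Bpifb1) was higher at an unadjusted p under 0.05 (1.39%). Bpifb1 had 8.74 to 10.23 (median 9.35) in 1 µg mice, against 8.38 to 9.30 (median 8.76) in DM mice, a difference of 0.59 ± 0.28. Muc5ac had 3.99 to 4.37 in 1 µg mice, against 3.23 to 3.94 in DM mice, so that every 1 µg mouse was above every DM mouse. It was the only gene of the 22180 with that order at 12 months (0.00451%), chosen after its values were seen, and 1 gene, Atp13a5, had the opposite order (0.00451%). Its difference was 0.42 ± 0.29 in limma, with an adjusted p of 1, where the SE holds the spread of all groups, high doses included.

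Pooled over the times, Clca1 (1.41 ± 0.38), Bpifb1 (0.57 ± 0.15) and Muc5b (0.35 ± 0.10) were the 3 genes with the smallest p among those above DM, each with an adjusted p of 1. Of the 14 mucous cell genes 6 were higher at an unadjusted p under 0.05 (1.36% of all genes), the others being Agr2 (0.41 ± 0.17), Fcgbp and Muc5ac (0.41 ± 0.16), and the median was 0.28. Above 0 were 10 of the 14, and 48.8% of all genes. Without mouse m247 the number was 5 and the median 0.21, with Clca1 at 1.19 ± 0.36. The limma test of a difference between the times gave Clca1 an adjusted p of 1, which does not show that the times were alike.

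Within the 1 µg mice of 1 month, Clca1 levels went with those of some macrophage genes. Over the 8 mice Clca1 correlated with Retnla, a secreted protein of alternatively activated macrophages and airway epithelium, at a Pearson r of 0.88 (exact permutation p = 0.00203, 0.0163 after adjustment over 8 relations) and a Spearman rho of 0.93 (exact permutation p = 0.00223, adjusted 0.0179). Without the 2 mice farthest from the median of Clca1 the r was 0.84. With Chil4, a chitinase-like protein, r was 0.84 and rho 0.90 (exact permutation p = 0.0184 and 0.00456, adjusted 0.0624 and 0.0183), and r was 0.67 without 2 mice. With Mmp12, the macrophage elastase, r was 0.78 and rho 0.86 (exact permutation p = 0.0234 and 0.0107, adjusted 0.0624 and 0.0286), and r was 0.72 without 2 mice. With Muc5b, r was 0.43 and rho 0.40 (exact permutation p = 0.291 and 0.327, adjusted 0.333 and 0.523), and r was 0.23 without 2 mice. In the 8 DM mice the r of Clca1 was 0.65 with Retnla, 0.72 with Chil4, 0.26 with Mmp12 and -0.66 with Muc5b, with exact permutation p-values of 0.157, 0.128, 0.613 and 0.143 (adjusted 0.21, 0.21, 0.613 and 0.21). The rho there was 0.19, 0.40, 0.05 and -0.33, and without 2 mice each r lay between -0.17 and -0.04, so the DM relations rested on those mice. These 4 genes were chosen after their values were seen, and the adjustment over 8 relations does not cover that choice. The difference between 1 µg and DM mice in r was not tested. Only 1 of the 9 arrays of the 1 µg mice has the word replacement, too few for a value within it. That array is 1 of the 2 unlike arrays averaged for mouse m101. With the word and without it, Clca1 was 5.58 and 9.53, Retnla 6.91 and 9.86, Chil4 2.98 and 6.97, and Mmp12 5.7 and 6.5.

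Among macrophage genes, Retnla and Chil4 lay above DM at 1 month, and Mmp12 and Gpnmb differed less, with none of the 4 called. Retnla at 1 month had 7.51 to 9.99 (median 8.06) in 1 µg mice, against 6.88 to 8.48 (median 7.30) in DM mice. Every 1 µg mouse was above the DM median and 2 were above every DM mouse. The difference was 0.72 ± 0.31 (exact permutation p = 0.0463, adjusted 0.32), and 0.47 without mouse m340, the highest. Among arrays with the word replacement alone it was -0.61. At 6 months Retnla had 6.93 to 7.83 in 7 1 µg mice and 10.25 in mouse m247, against 5.95 to 7.29 in DM mice, a difference of 0.86 ± 0.31 (exact permutation p = 0.0222, adjusted 0.297). Without mouse m247 it was 0.49 ± 0.29, and 12 months gave -0.06 ± 0.33.

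Chil4 at 1 month had 2.25 to 5.08 (median 3.28) in 1 µg mice, against 1.53 to 3.85 (median 2.42) in DM mice, a difference of 1.03 ± 0.58. Mmp12 differed by 0.19 at 1 month and Gpnmb, a lysosome-linked protein of foamy macrophages, by 0.09. At 6 months Mmp12 differed by 0.43 and Gpnmb by 0.42 with mouse m247, and by 0.05 and 0.12 without it. Of the 45 exact permutation tests of panel genes 6 had an unadjusted p under 0.05 (Clca1, Muc5b, Retnla and Chil4 at 1 month, Retnla and Ccl2 at 6 months), and 0 passed after adjustment. Without mouse m247 these numbers were 5 and 0.

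Of the 6 genes above DM with the smallest p at 1 month, Zswim2 and Morn5 are known from ciliated cells. Zswim2, a ubiquitin ligase expressed in testis and ciliated cells, had 1.35 to 2.51 (median 1.78) in 1 µg mice, against 1.00 to 1.52 (median 1.27) in DM mice, a difference of 0.59 ± 0.16. Morn5, a protein of motile cilia and sperm tails, differed by 0.64 ± 0.19. The levels of Zswim2 are near the bottom of the scale. Of 13 ciliated cell genes measured all 13 were above 0 at 1 month (55.1% of all genes), with a median of 0.16 and 1 higher at an unadjusted p under 0.05 (0.839%). The summed level of these genes per mouse, as their mean, was 6.21 to 6.65 in 1 µg mice and 5.84 to 6.58 in DM mice.

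At 12 months the ciliated cell genes were again 13 of 13 above 0 (54.9% of all genes), with a median of 0.19. At 6 months 4 were above 0 (41.1% of all genes) and 9 below, with a median of -0.03, and without mice m7 and m154 the split was 12 and 1. Among the arrays with the word replacement at 1 month it was 3 above and 10 below. For these last splits the share of all genes above 0 in the same fit is not given here, so they cannot be set against it. On the lower side at 1 month were Fcna, which had 2.10 to 4.84 (median 3.21) in 1 µg mice against 3.42 to 5.57 (median 3.99) in DM mice (-1.01 ± 0.31), and Gucy2d, a guanylate cyclase, at -0.65 ± 0.16, each with an adjusted p of 1. The Gucy2d groups overlapped only at their edges, with 2.04 to 2.38 in 1 µg mice and 2.33 to 3.61 in DM mice. These levels are low on the scale too. At 1 month 0 genes had every 1 µg mouse above every DM mouse (0.0%), and 2 had every 1 µg mouse below (0.00902%), Pou5f1-rs4 and 4930467D21Rik, named after their values were seen.

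At 6 months the smallest p-values of all genes were those of the immediate early genes Ier2 and Btg2, which lay below DM, as did Fos and Egr1. Fos, a subunit of the AP-1 transcription factor, had 5.39 to 6.60 (median 5.90) in the 8 1 µg mice, against 6.16 to 8.05 (median 6.51) in the 8 DM mice. Of the 1 µg mice, 6 lay below every DM mouse. DM mice m133, m306 and m411 were far above the other 5 DM mice for Fos, at 7.68, 7.72 and 8.05. The difference was -0.93 ± 0.23 with an adjusted p of 0.361 in limma.

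**Figure D2:**
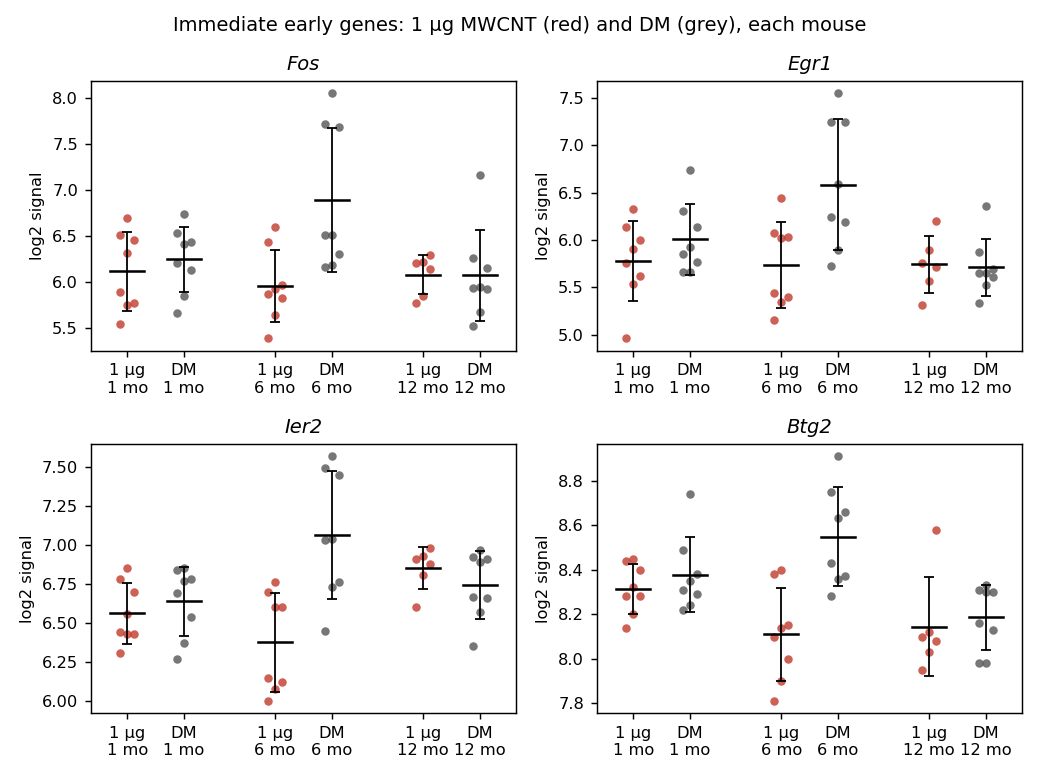
Log2 signal (vertical axis) of Fos, Egr1, Ier2 and Btg2 in each mouse, 1 µg MWCNT in red beside DM in grey at 1, 6 and 12 months, with a bar at the mean and whiskers of 1 SD. The 6-month DM mice reach 8.05 for Fos, and the 6-month 1 µg mice reach 6.60.

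Ier2, an immediate early response gene, had 6.00 to 6.76 (median 6.37) in 1 µg mice, against 6.45 to 7.57 (median 7.04) in DM mice, and 4 of the 1 µg mice were below every DM mouse. Btg2, an antiproliferative gene of the same fast class, had 7.81 to 8.4 (median 8.12) in 1 µg mice, against 8.28 to 8.91 (median 8.53) in DM mice, and 6 were below every DM mouse. Their differences were -0.69 ± 0.14 and -0.44 ± 0.09, each with an adjusted p of 0.0577 in limma. Without mouse m247 the adjusted p of both was 0.092. Without mice m7 and m154 the differences were -0.58 and -0.37, with an adjusted p of 0.991.

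Egr1, a zinc finger transcription factor, had 5.15 to 6.44 (median 5.73) in 1 µg mice, against 5.73 to 7.55 (median 6.42) in DM mice, a difference of -0.85 ± 0.21. The DM mice m133, m306 and m411 were again the highest of their group for Egr1, Ier2 and Btg2. Fosb (-0.74 ± 0.19), Junb (-0.47 ± 0.14), Nr4a1 (-0.48 ± 0.17), Dusp1 (-0.45 ± 0.15), Zfp36 and Klf2 were the remaining list members with an unadjusted p under 0.05. In all, 10 of the 21 immediate early genes measured were lower at that threshold at 6 months, where 3.99% of all genes were. The median was -0.33, beside -0.03 over all genes, with 19 below 0 (58.9% of all genes) and 2 above.

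At other times the same genes lay closer to DM. The median of the 21 was -0.10 at 1 month and 0.03 at 12 months, with 0 at that threshold in either direction. The limma test of a difference between the times gave an unadjusted p of 0.000552 for Ier2, 0.00446 for Btg2 and 0.00898 for Fos, and an adjusted p of 1 for each. The lungs of 10 µg mice at 6 months stood above 1 µg for Fos by 0.55 ± 0.23 (adjusted p of 1). The labels do not state the time from death to freezing of each lung, and its part was not tested.

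Other genes with small p-values at 6 months included Loxl4, a lysyl oxidase that crosslinks collagen and elastin. It had 4.82 to 5.46 (median 5.05) in 1 µg mice, against 4.25 to 4.84 (median 4.53) in DM mice, a difference of 0.54 ± 0.13 with an adjusted p of 0.278. The groups touched only at 1 mouse each. Shcbp1, a gene of dividing cells, differed by 0.69 ± 0.18, Cyp1b1, a target of the aryl hydrocarbon receptor, by 0.46 ± 0.14, and Flcn, the folliculin tumour suppressor, by -0.41 ± 0.10. The genes with every 1 µg mouse below every DM mouse at 6 months were Bysl, Nlgn3 and Tgif1 (0.0135% of all genes, beside 0.0% in the other direction), chosen after their values were seen.

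Genes of squamous epithelium and skeletal muscle moved with the 6-month comparison, and their part in it was not tested further than by leaving mice out. Krt4 differed by 2.31 ± 1.01 and Acta1, the actin of skeletal muscle, by 1.74 ± 0.86. The mean level of 19 squamous genes was 3.19 to 5.66 (median 3.38) in 1 µg mice, against 3.15 to 3.36 (median 3.22) in DM mice, with mice m309 and m347 far above the rest. Without these 2 mice the median squamous difference was 0.05, beside 0.42 with them, and that of skeletal muscle 0.09, beside 0.86.

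**Figure D3:**
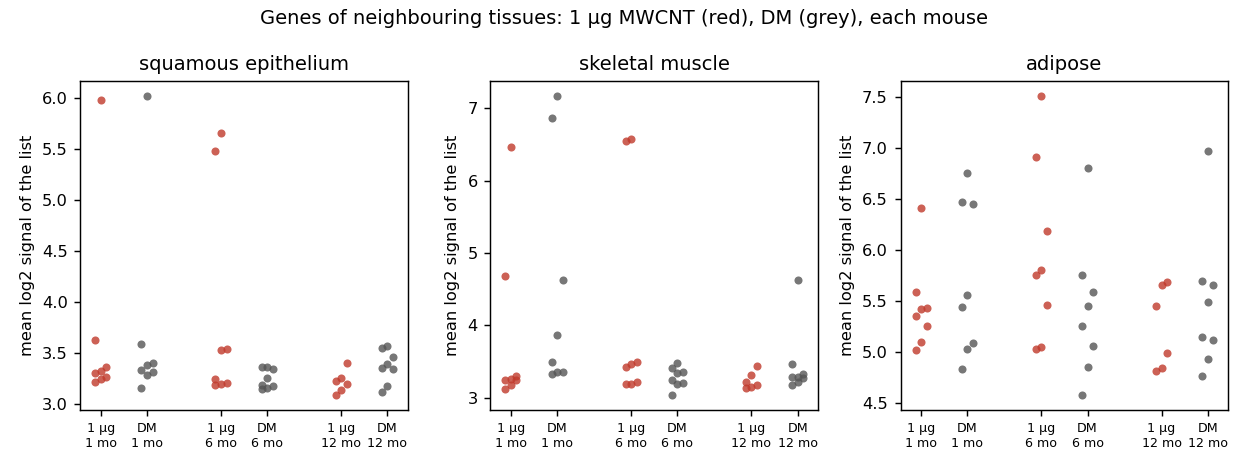
Mean log2 signal (vertical axis) of the genes of squamous epithelium, skeletal muscle and adipose tissue in each mouse, 1 µg MWCNT in red beside DM in grey at 1, 6 and 12 months. For squamous genes, 1 1 µg and 1 DM mouse at 1 month and 2 1 µg mice at 6 months stand above 5, and all others lie below 4.

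Of 12 skeletal muscle genes 2 were lower at an unadjusted p under 0.05 at 1 month (1.13% of all genes). Their mean level was 3.12 to 6.47 in 1 µg mice and 3.33 to 7.17 in DM mice, and the median difference was -0.68. Adipose genes had a median difference of -0.32 at 1 month, 0.55 at 6 months (11 of 11 above 0, and 41.1% of all genes) and -0.30 at 12 months. Without mice m286 and m350 the Clca1 difference at 1 month was 1.95. Without mice m309 and m347 the immediate early genes at 6 months gave 9 lower at an unadjusted p under 0.05, where 1040 of all 22180 genes were, with a median of -0.31. Both come from a fit that left out every mouse of the series with Krt4 above 8.

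Mouse m247, labelled 1 µg at 6 months, stood apart from the other 7 mice of its group in several genes. Its Clca1 was 10.14, against 3.46 to 5.25 in the others, its Mmp12 8.4, against 4.93 to 5.47, and its Gpnmb 8.79, against 6.15 to 6.46. Ctsk, a protease of multinucleated cells, was at 7.87 in mouse m247, against 5.56 to 5.96 in the others. Jchain, which joins secreted antibodies, was at 9.08, against 5.58 to 8.07. Each of these was the highest in the group. Other inflammation genes did not stand apart in this way. Chil3 was at 9.29 in mouse m247, against 8.87 to 9.59 in the others, Arg1 at 4.48, against 3.85 to 4.64, and Cxcl5 at 4.96, against 4.1 to 5.72. Saa3 was at 5.54, above the others (3.12 to 4.48) but within the range of DM mice (3.61 to 5.9).

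**Figure D4:**
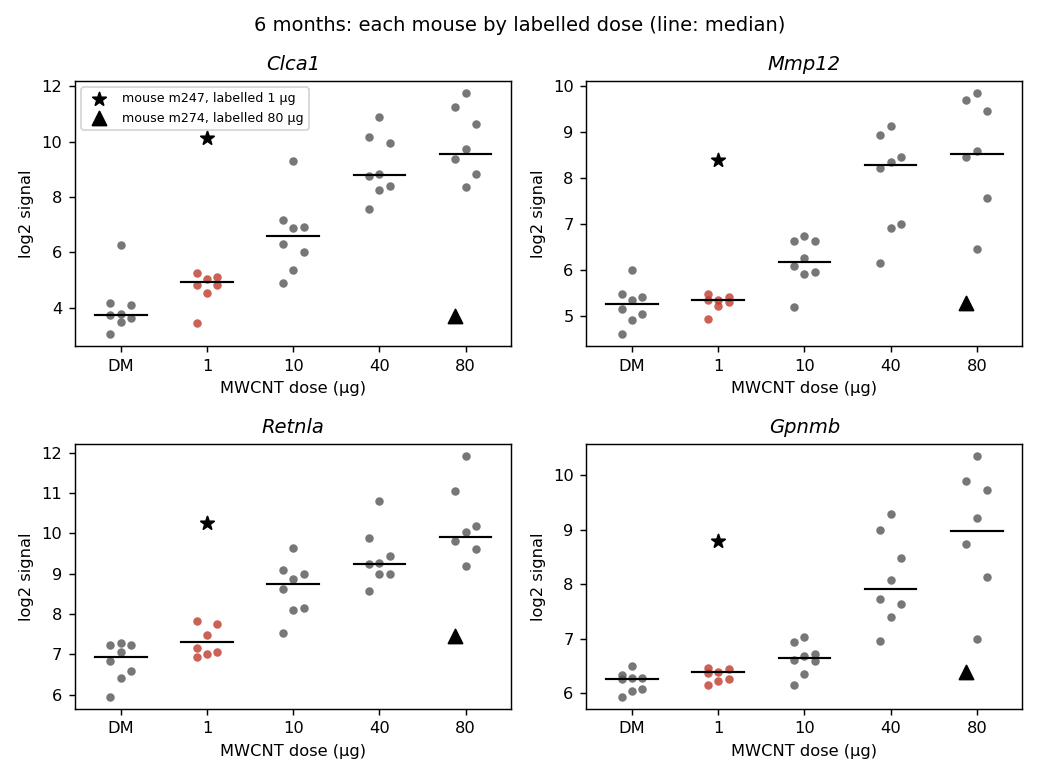
Log2 signal (vertical axis) of Clca1, Mmp12, Retnla and Gpnmb in each 6-month mouse by labelled dose, DM and then 1, 10, 40 and 80 µg MWCNT, with a line at the median. Mouse m247 (star), labelled 1 µg, lies within the 40 and 80 µg groups, with Clca1 at 10.14, and mouse m274 (triangle), labelled 80 µg, lies within the DM range for Clca1 (3.71), Mmp12 and Gpnmb and above it for Retnla (7.45).

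In 6-month mice of higher dose, Clca1 ran from 4.88 to 9.29 at 10 µg, from 7.58 to 10.88 at 40 µg and from 3.71 to 11.76 at 80 µg, so that mouse m247 lay above all 10 µg mice. Mmp12 ran from 5.20 to 6.74 at 10 µg, 6.15 to 9.13 at 40 µg and 5.28 to 9.85 at 80 µg. The lowest 80 µg values, Clca1 at 3.71, Mmp12 at 5.28, Retnla at 7.45 and Gpnmb at 6.39, all came from the library labelled mouse m274. Both libraries go against their labels in these genes. Mouse m274 lay within the DM range for Clca1, Mmp12 and Gpnmb. It lay above that range for Retnla (highest DM 7.29) and for Ctsk (6.32, highest DM 6.0). Whether labels were exchanged was not tested. Fos in mouse m247 was 6.60, against 5.39 to 6.44 in the others. Without mouse m247 the Fos difference was -1.02 and that of Btg2 -0.44, as with it, and the median of the immediate early genes was -0.29, beside -0.33 with it.

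At 12 months the smallest p belonged to Klrb1c, the NK1.1 receptor of natural killer cells. It had 2.61 to 3.48 (median 3.08) in the 6 1 µg mice, against 3.47 to 4.73 (median 3.87) in the 8 DM mice, and 5 of the 6 lay below every DM mouse. The difference was -0.93 ± 0.23 with an adjusted p of 1 in limma. Within arrays without the word replacement it was -0.59, and within those with it -1.54. Of 13 genes of natural killer and cytotoxic cells measured, Klrb1c was the only one at an unadjusted p under 0.05 (1.29% of all genes were lower at that threshold). The list had 3 genes above 0 and 10 below (45.1% of all genes), with a median of -0.13. Zfp820, a zinc finger gene, was on the other side, with 3.28 to 5.00 in 1 µg mice and 2.20 to 3.29 in DM mice (1.18 ± 0.30), as was Cep72, a centrosome gene (0.69 ± 0.19).

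Across 43 gene lists, 595 of whose 658 entries were measured, no member was called at any time. Lists of fibrosis were close to DM. The 20 genes of collagens and matrix had medians of 0.01, -0.01 and -0.04 at 1, 6 and 12 months, with 0 at an unadjusted p under 0.05. The 18 genes of lipid-laden macrophages had medians of 0.04, 0.14 and -0.03, the second being 0.01 without mouse m247, also with 0 at that threshold. The 14 CC chemokines had medians of 0.06, 0.19 and -0.24, with 10, 11 and 2 of 14 above 0 (55.1%, 41.1% and 54.9% of all genes), and Ccl20, a ligand that draws lymphocytes to mucosa, at 0.53 ± 0.18 at 6 months. The 6-month values of this list include mouse m247. Without it Ccl2 differed by 0.25, beside 0.34 with it, and Ccl20 by 0.61.

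**Figure D5:**
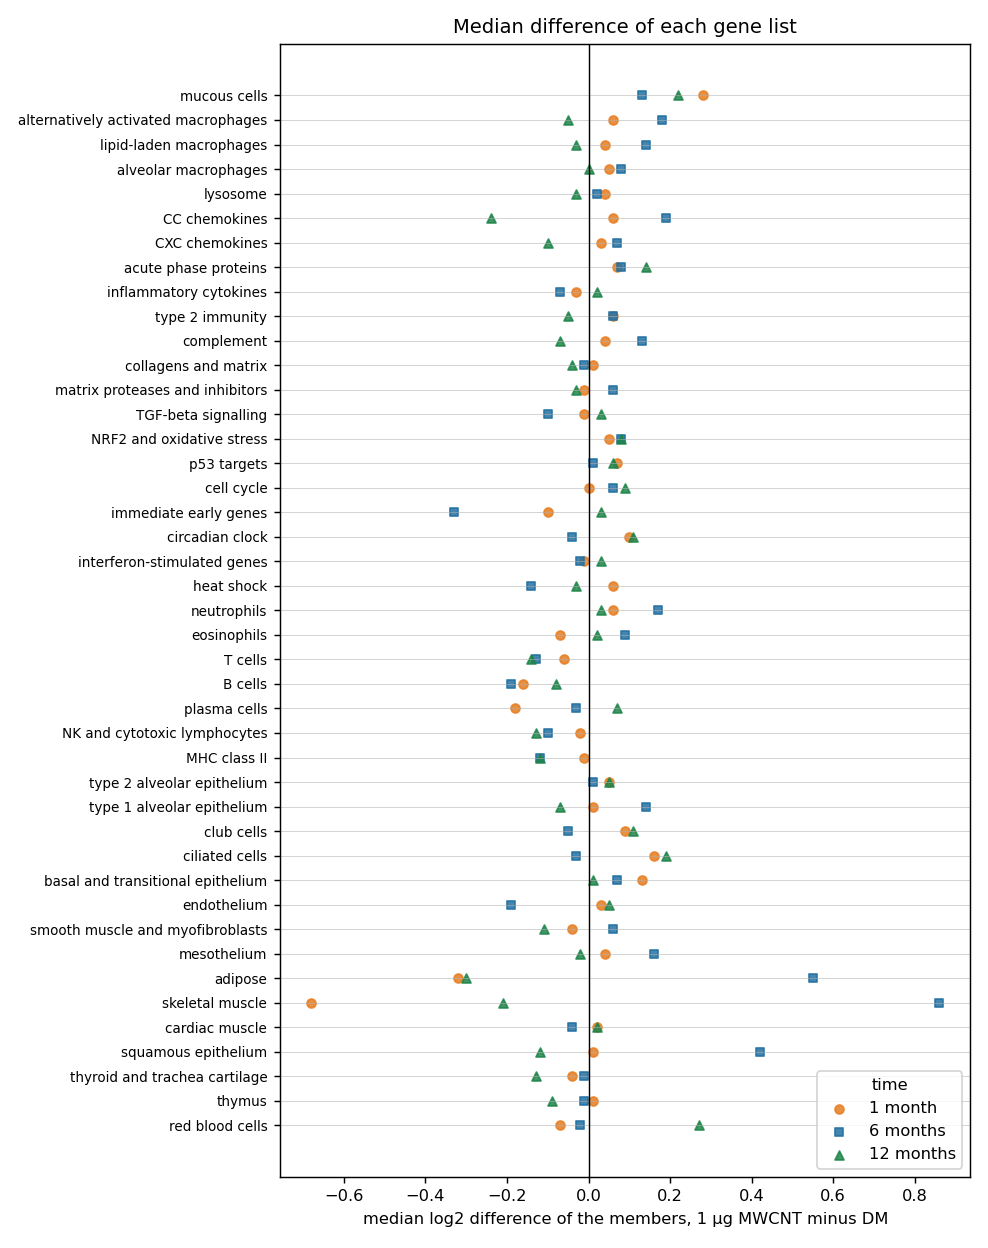
Median log2 difference (horizontal axis, 1 µg MWCNT minus DM) of the measured genes of each list, at 1 month (circle), 6 months (square) and 12 months (triangle). Mucous cells lie above 0 at each time, immediate early genes reach -0.33 at 6 months, and skeletal muscle runs from -0.68 to 0.86.

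B cell genes such as Cd79a, a subunit of the B cell receptor, were below DM in small and even steps. Of 13 measured, 0 were above 0 at 1 month (median -0.16), 0 at 6 months (-0.19) and 1 at 12 months (-0.08), where 55.1%, 41.1% and 54.9% of all genes were, and none had an unadjusted p under 0.05 at any time. At 6 months this rested on mice m7 and m154, without which 8 of the 13 were above 0 (median 0.02). The share of all genes above 0 without these mice is not given here. The mean of the B cell genes at 1 month was 6.53 to 6.90 in 1 µg mice and 6.71 to 7.07 in DM mice, which overlapped. Of 15 T cell genes 14 were below 0 pooled (51.2% of all genes; median -0.11), as were all 11 of MHC class II (-0.08).

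At 6 months all 18 endothelial genes were below 0, with a median of -0.19 and 4 lower at an unadjusted p under 0.05 (3.99% of all genes), including Egfl7 (-0.32 ± 0.12) and Kdr (-0.22 ± 0.10), the main VEGF receptor. Of 17 genes of TGF-beta signalling 16 were below 0 (median -0.10), with Tgfb1 at -0.30 ± 0.12 and Smad4 at -0.17 ± 0.06. Over all genes 58.9% were below 0 at 6 months, beside 44.9% at 1 month. Without mice m7 and m154 the endothelial list had 1 at that threshold and a median of -0.09, and the TGF-beta list a median of -0.04. Of all 22180 genes 533 were lower at that threshold in the same fit.

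The antioxidant genes controlled by NRF2 were slightly above DM, with 14 of 17 above 0 pooled (48.8% of all genes) and a median of 0.09. The 3 higher at an unadjusted p under 0.05 (1.36% of all genes) were Gclm (0.13 ± 0.06) and Gclc (0.11 ± 0.06), which make glutathione, and Txnrd1 (0.09 ± 0.04), a thioredoxin reductase. Without mouse m247 the number was 2 and the median 0.08. Each of the 3 lost that threshold when 1 mouse of 12 months was left out. Without 1 µg mouse m82 the limma p was 0.103 for Gclc and 0.105 for Txnrd1, and without DM mouse m314 it was 0.0836 for Gclm.

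The next dose, 10 µg (24 mice), was set against 1 µg, a comparison that shares the 1 µg arrays with those above. At 1 month 0 genes were called (0.0%), and with 10 µg Clca1 lay above 1 µg by 2.26 ± 0.63, Retnla by 1.29 ± 0.31 and Mmp12 by 1.26 ± 0.35, with adjusted p of 0.913, 0.872 and 0.913. The 1 µg minus DM difference beside it was 2.24 ± 0.63 for Clca1, 0.72 ± 0.31 for Retnla and 0.19 for Mmp12. At 12 months 0 genes were called (0.0%), with Mmp12 at 0.84 ± 0.38 and Clca1 at 1.19 ± 0.68. At 6 months Clca1 was at 1.21 ± 0.63 and Retnla at 0.94 ± 0.31, and without mouse m247 at 1.88 ± 0.62 and 1.31 ± 0.29.

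At 6 months 1 gene was called between 10 µg and 1 µg (0.00451%). Fa2h, which hydroxylates the fatty acids of sphingolipids, averaged 3.27 in 10 µg mice (2.77 to 3.62) and 2.51 in 1 µg mice (2.30 to 2.98, median 2.46). These levels are low on the scale, below the median of every array (4.009 to 4.336). The difference was 0.76 ± 0.15 with an adjusted p of 0.0412 in limma, and 0.83 with an adjusted p of 0.0114 without mouse m247, which was the highest of the 1 µg mice. DM mice had 2.70 to 3.47 (median 2.94), so that 1 µg lay below DM as well, at -0.50 ± 0.15 (adjusted p of 0.872). The call did not hold under 6 other ways of fitting or scaling, with adjusted p from 0.0539 to 0.817.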

How the data were processed

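Expression in mouse lung was measured on Affymetrix arrays, and the authors deposited 1 log2 value per feature and array. Per the submitters' processing notes the tools were oligo with RMA, and limma. For these, versions and genome build were not given in the sources used here. Of 41345 features 23521 had 1 gene symbol, 1814 several and 16010 none, and 23328 of the first matched RefSeq records (GRCm38.p6), with 0 symbols changed. The feature with the highest mean was kept per gene, which left 22180. Replicate numbers follow accession order and only name a mouse.

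A group-mean model over the mice of all 18 groups, 1 value per mouse, was fitted in limma 3.58.1 (R 4.3.3), two-sided, with Benjamini-Hochberg adjustment, and tested on simulated data. Pooled means the average of the 3 times. Panel genes had exact permutation tests (scipy 1.17.1). Members and lists were chosen with earlier results of these data known. Genes named are the 6 smallest p per direction and comparison (predicted genes, gene segments and receptors of smell passed over), the panel, 2 per list with the smallest p, the largest in mouse m247 and those past the threshold for 10 µg. Others were chosen after their values were seen. Mice left out for Krt4 above 8 or a low correlation with the others (m7, m154 and m314 among them), and arrays with the word replacement alone, are alternatives chosen after seeing the data. Fits described as without mice of either kind left out all mice of the series past the same mark, so their spread rests on the remaining mice. The number of arrays limits the precision.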

Additional observations from a re-analysis of the deposited data

Results flagged for a closer look

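In 192 combinations of a gene and a group of 4 to 10 mice, 30 had a mouse whose gap to the next was large against the range of the group. The rule was set at about 5% of groups by chance. Some of these genes were chosen for their values in mouse m247, and some vary together across mice. The number flagged can therefore not be read against that share. Mouse m247 (1 µg, 6 months) was the highest of its group for Clca1 (10.14), Retnla (10.25), Mmp12 (8.4), Gpnmb (8.79), Ctsk (7.87), Chil4 (5.53), Muc5ac (5.52), Slc26a4 (6.60), Fcgbp (6.43), Trem2 (6.24), Timp1 (5.40) and Fa2h (2.98).

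Of the other 1 µg mice, mouse m286 (1 month) was high for Krt4 (11.89) and Acta1 (9.59), and mouse m340 (1 month) for Retnla (9.99). At 12 months mouse m257 was low for Chil3 (8.61) and high for Col1a1 (8.51) and Muc5ac (4.37), mouse m298 was high for Btg2 (8.58), and mouse m429 was low for Trem2 (4.12).

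Of the DM mice, mouse m350 (1 month) was high for Krt4 (12.11), mouse m391 (1 month) for Clca1 (8.10), and mouse m217 (1 month) low for Klrb1c (3.24). Mouse m169 (6 months) was high for Clca1 (6.28). At 12 months mouse m314 was high for Acta1 (7.92), Chil4 (4.13) and Clca1 (4.75) and low for Slc26a4 (3.31), and mouse m390 was high for Fos (7.16) and Fosb (4.72).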

How the results depend on the processing

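The count of changed genes between 1 µg and DM was 0 at 1 month, 12 months and pooled under every alternative run. At 6 months it was 0 in the fit as described, 2 with trended and robust moderation (Ier2 and Btg2, adjusted p 0.0462 for both), 2 among genes above the median level (0.0253 for both), 1 with arrays centred on their median (Ier2, 0.0232), and 0 to 2 when each mouse was left out in turn. Ier2 and Btg2 each passed in 5 of those fits, with the smallest adjusted p, 0.0129 and 0.0188, without DM replicate 8. The 6-month number at an unadjusted p under 0.05 was 774 without 1 µg mouse m7. Between 10 µg and 1 µg at 6 months the count of 1 became 0 in the compared groups alone, with array weights, with trended and robust moderation, without the word replacement, with median centring, with quantile normalization and among genes above the median level, where Fa2h was not tested. At 12 months it was 1 without that word. Of 921 alternatives to 79 gene differences, 905 kept direction and side of the threshold. Those that turned were Muc5b (-0.39), Muc5ac (-0.06), Retnla (-0.61) and Lpar1 (-0.09) at 1 month among arrays with the word, 1 of them from a 1 µg mouse, and Retnla at 12 months (0.04) without it. The causes were not tested. No paired analysis was possible because replicate numbers follow accession order.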
